A study of Homo sapiens with 12 samples.

Results

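The interleukin-1 axis, with the cytokines IL6 and LIF that it can induce, was followed at the mRNA level in the cell line HLE-B3, which was made by immortalizing epithelial cells of the human lens. The 9 members were IL1A, IL1B, IL1RN, IL1R1, IL1RAP, MYD88, IRAK1, IL6 and LIF, found by gene name among 58735 annotated genes, and each had 1 row in the count and FPKM tables (fragments per kilobase of gene, scaled to the library's size). The series compared WT cells with Atg7KO cells, in which the autophagy gene ATG7 was targeted by CRISPR/Cas9, each untreated (0 h) or exposed to 200 μM H2O2 for 12 h. The groups were thus WT untreated, WT H2O2, Atg7KO untreated and Atg7KO H2O2, with 3 replicates each and 12 libraries in all. All 4 groups were grown in DMEM/F12 with fetal bovine serum, the knockout cells had passed through puromycin selection and picking of single clones checked by western blot, and the sources used here do not give which or how many clones were sequenced. Because untreated cells were collected at 0 h, an effect of H2O2 and an effect of 12 h in culture cannot be told apart, and clone and genotype cannot be told apart either. The members were chosen from measured values: the difference between the H2O2-treated lines was already known for IL1B, IL1R1 and IL6, so that difference is described below without a test.

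IL-1α (IL1A) and IL-1β (IL1B) are ligands that bind the receptor IL1R1, which then recruits the accessory chain IL1RAP. The adaptor MYD88 and kinases of the IRAK family carry the signal to NF-κB and MAP kinases, and the antagonist encoded by IL1RN occupies IL1R1 without signalling. IL-1β is made as a precursor that caspase-1 cleaves before release, so that mRNA alone does not give the active cytokine, and IL6 and LIF signal through receptors that share the gp130 chain.

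The library totals ran from 15602183 to 17659496 assigned reads, with a median of 17205174. The library labelled Atg7KO untreated replicate 1 stood apart, with a mean correlation of 0.974 with the other libraries of its group, against at least 0.983 for the other 11 libraries, and the members' results that it touches are given with and without it. Leaving it out raised the calls over all genes between untreated lines from 679 higher and 503 lower to 2891 and 2843, and those in the Atg7KO response from 2107 and 1918 to 4768 and 4573. ATG7 itself was at 2.55 ± 0.313 FPKM (SD, n = 3) in WT untreated, 1.96 ± 0.0411 in WT H2O2, 3.55 ± 0.205 in Atg7KO untreated and 2.19 ± 0.137 in Atg7KO H2O2, so the counts do not show the knockout and give no check of the genotype label. Of 14 lens markers, 3 exceeded 1 FPKM in a group, and SOX2 and LIM2 were at 0 in every library, whereas 9 of 10 mesenchymal markers exceeded 1 FPKM. Of 7 markers of epithelia in general 3 exceeded 1 FPKM, and the list summed to between 88.5 and 172.8 FPKM per library. The list of blood cell markers, made of leukocyte genes and the haemoglobin gene HBB, had 2 of 11 above 1 FPKM. Its summed level ranged from 1.93 to 3.30 FPKM over the libraries, and HBB was at 0. These are bulk libraries, in which a change in the number of cells that express a gene and a change in its mRNA per cell cannot be told apart.

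The sequence around the start sites of the strongly responding cytokine genes is shown because IL1A, IL1B, IL6 and LIF were called in all 4 comparisons tested, and windows are printed for the first 3. Each RefSeq window (GRCh38.p14) holds 250 bases before and 50 after an annotated start, and 8 of the 9 members had 14 windows. The window of IL1A lies on the minus strand at chr2:112784444-112784743, that of IL1B on the minus strand at chr2:112836730-112837029, and that of IL6 on the plus strand at chr7:22726950-22727249. Capitals mark matches, on either strand, to AP-1 (TGANTCA), C/EBP (TTGCNNAA), the cAMP response element motif (TGACGT), the antioxidant response element core (TGACNNNGC) and the NF-κB consensus.
IL1A: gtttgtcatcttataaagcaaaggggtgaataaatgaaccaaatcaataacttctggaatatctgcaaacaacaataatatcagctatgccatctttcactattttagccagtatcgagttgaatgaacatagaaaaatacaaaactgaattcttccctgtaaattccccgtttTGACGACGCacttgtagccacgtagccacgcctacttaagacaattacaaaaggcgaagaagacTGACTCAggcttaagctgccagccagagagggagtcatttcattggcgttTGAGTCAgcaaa
IL1B: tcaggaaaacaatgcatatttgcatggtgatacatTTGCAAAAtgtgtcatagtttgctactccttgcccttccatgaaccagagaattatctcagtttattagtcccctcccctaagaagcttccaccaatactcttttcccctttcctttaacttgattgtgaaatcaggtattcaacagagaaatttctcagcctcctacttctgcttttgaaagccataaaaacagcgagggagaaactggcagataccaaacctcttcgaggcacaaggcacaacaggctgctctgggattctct
IL6: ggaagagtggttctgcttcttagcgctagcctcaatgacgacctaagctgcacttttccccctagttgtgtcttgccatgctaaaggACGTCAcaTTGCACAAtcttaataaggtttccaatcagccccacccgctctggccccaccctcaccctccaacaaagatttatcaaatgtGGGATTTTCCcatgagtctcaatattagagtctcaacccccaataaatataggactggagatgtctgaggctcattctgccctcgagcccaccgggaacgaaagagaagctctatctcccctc
IL1A held 2 AP-1 matches and 1 antioxidant response element core, IL1B held 1 C/EBP match, and IL6 held 1 match each to the NF-κB consensus, C/EBP and the cAMP response element motif. Over all 35116 promoter windows, 7.71% held AP-1, 10.5% C/EBP, 7.98% the cAMP response element motif, 13.3% the antioxidant response element core and 11.3% the NF-κB consensus, so each motif is common. No printed match overlaps another. Members with smaller responses also held matches: IRAK1 to the NF-κB consensus, AP-1 and the antioxidant response element core. IL1RN held AP-1 in a window, and IL1R1 held C/EBP and the antioxidant response element core in separate windows. The windows of MYD88 and IL1RAP held none of these motifs. These matches are letters in a window and no record of binding.

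The 3′ ends of the same mRNAs are known for AU-rich elements, at which cytokine mRNAs are bound by decay factors. In GENCODE v29 transcripts the pentamer ATTTA occurred 5 times in the 3′ untranslated region of IL1A, 6 times in IL1B, 6 times in IL6 and 7 times in LIF, against a median of 2 over 13364 genes. Per kilobase the density was 14.0 in IL6, 9.84 in IL1B, 4.34 in IL1A and 2.18 in LIF, against a median of 1.55. The densest stretch of 30 bases in each is shown with ATTTA in capitals, at chr2:112774424-112774453 (IL1A, minus strand), chr2:112830003-112830032 (IL1B, minus strand), chr7:22731697-22731726 (IL6, plus strand) and chr22:30240522-30240551 (LIF, minus strand), all GRCh38.
IL1A: tATTTAtatatgtATTTAtaaatatATTTA
IL1B: tgagcaaccgcttccctATTTATTTATTTA
IL6: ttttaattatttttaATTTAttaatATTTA
LIF: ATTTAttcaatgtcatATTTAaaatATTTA
IL1B was the member with the overlapping repeat ATTTATTTA, which 6.65% of the 13364 genes hold. The receptor, antagonist and adaptor genes ranged from 0 ATTTA in IL1RN to 8 in the longer 3′ untranslated region of IL1R1, and their densities ranged from 0 to 2.57 per kilobase.

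Both agonist ligands rose after H2O2 in both lines and were already higher in untreated Atg7KO cells than in untreated WT cells. IL1B (ENSG00000125538, chr2:112829751-112836903, minus strand) was at 6.21, 6.46 and 5.46 FPKM in the WT untreated libraries and at 106, 113 and 113 FPKM after H2O2. In Atg7KO cells it was at 64.2, 43.0 and 46.0 FPKM untreated and at 497, 458 and 461 FPKM after H2O2. The 4 groups did not overlap, and every untreated Atg7KO library lay above every untreated WT library and below every H2O2-treated library. The H2O2 response of IL1B in WT cells was 4.19 on the log2 scale (SE 0.06, adjusted p = 8.9e-45), 18.2-fold. In Atg7KO cells it was 3.21 (SE 0.18, adjusted p = 3.69e-05), 9.23-fold, and 3.39 without the library that stood apart. Untreated Atg7KO cells exceeded untreated WT cells by 3.08 on the log2 scale (SE 0.18, adjusted p = 0.000161), 8.43-fold. Without the library that stood apart, which was the highest of its group for IL1B, this difference was 2.89 (adjusted p = 7.99e-128).

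IL1A (ENSG00000115008, chr2:112773915-112784590, minus strand), whose product is active as a precursor and can be released from damaged cells, was at 7.48, 6.30 and 5.59 FPKM in WT untreated libraries and at 87.8, 94.9 and 84.5 FPKM in WT H2O2 libraries. It was at 29.5, 22.0 and 25.2 FPKM in Atg7KO untreated libraries and at 81.1, 76.7 and 79.0 FPKM in Atg7KO H2O2 libraries. Here the treated WT libraries were the highest and the treated Atg7KO libraries lay just below them, in contrast to IL1B. The H2O2 response was 3.78 in WT cells (SE 0.07, adjusted p = 1.43e-35) and 1.62 in Atg7KO cells (SE 0.12, adjusted p = 0.00011) on the log2 scale, the latter 1.73 without the library that stood apart. The untreated lines differed by 1.98 (SE 0.16, adjusted p = 0.0004), and by 1.88 (adjusted p = 5.97e-55) without the library that stood apart. IL1A and IL1B are neighbours on chromosome 2, yet their levels were 6.46 and 6.04 FPKM in WT untreated cells and 78.9 and 472 FPKM in Atg7KO H2O2 cells.

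IL1RN (ENSG00000136689, chr2:113107214-113134016, plus strand), the receptor antagonist, was the least abundant member. No read was assigned to it in the 6 WT libraries. The upper end of the 95% Poisson interval, here the WT limit, is then 3.69 reads over each WT group. In Atg7KO cells there were 5 reads over the 3 untreated libraries (95% Poisson interval 1.62 to 11.7) and 22 over the 3 treated libraries (13.8 to 33.3). These intervals cover counting error only. The interval of treated Atg7KO cells lies above the WT limit, whereas that of untreated Atg7KO cells overlaps it, and IL1RN did not pass the filter on low counts in any comparison. Agonist mRNA therefore exceeded antagonist mRNA in FPKM in every library.

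**Figure D1:**
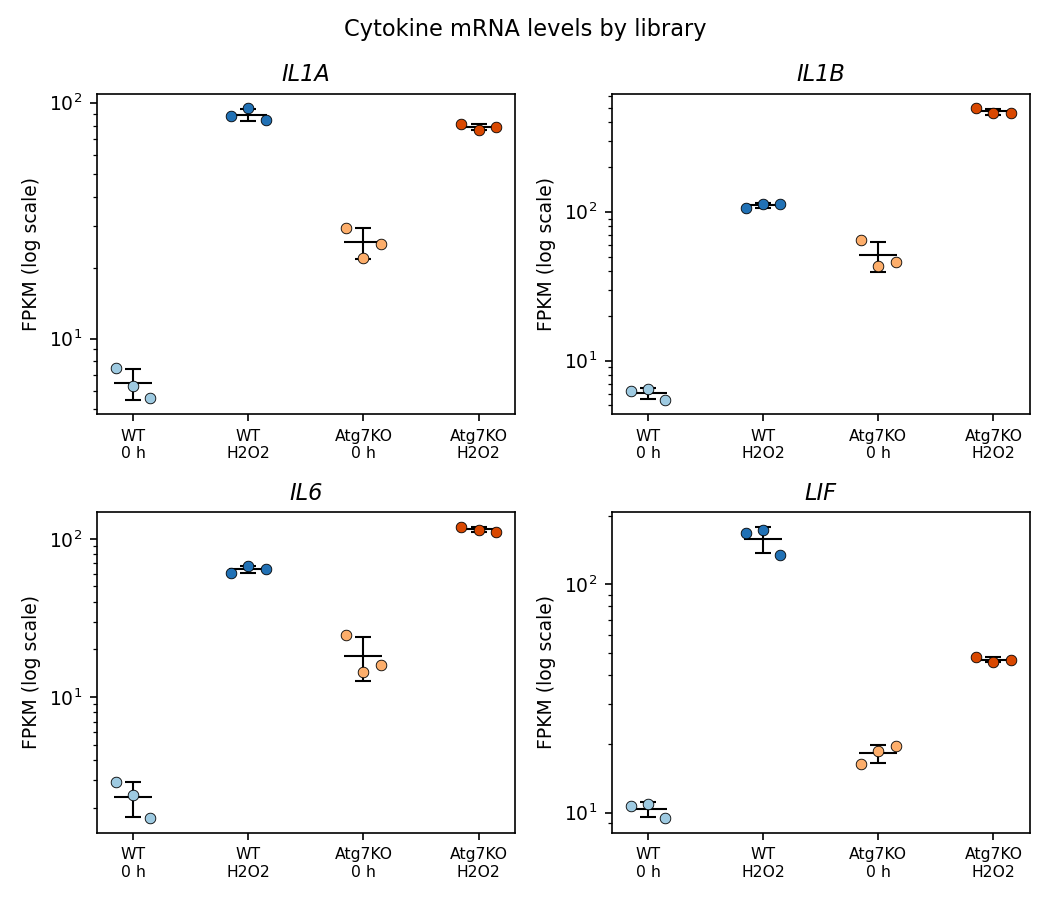
Levels of IL1A, IL1B, IL6 and LIF in FPKM on a log axis, for 3 libraries in each of 4 groups (points), with the group mean and SD (bars). IL1B and IL6 were highest in Atg7KO H2O2 (472 and 115 FPKM on average), whereas IL1A and LIF were highest in WT H2O2 (89.1 and 158 FPKM).

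IL6 (ENSG00000136244, chr7:22725884-22732002, plus strand), the founding cytokine of the gp130 family and a known IL-1 target, followed the order of IL1B. Its levels were 2.88, 2.39 and 1.72 FPKM in WT untreated libraries and 60.8, 67.6 and 64.2 FPKM in WT H2O2 libraries. In Atg7KO cells they were 24.7, 14.4 and 15.8 FPKM untreated and 119, 114 and 111 FPKM after H2O2. No groups overlapped, and the library that stood apart was again the highest untreated Atg7KO library. The response was 4.78 in WT cells (SE 0.09, adjusted p = 1.97e-34), the largest among the members, and 2.65 in Atg7KO cells (SE 0.21, adjusted p = 0.000129), where it was 2.91 without that library. Untreated lines differed by 2.97 (SE 0.27, adjusted p = 0.000678), or by 2.70 (adjusted p = 1.9e-57) without that library.

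LIF (ENSG00000128342, chr22:30240447-30246851, minus strand), a gp130 cytokine known for keeping stem cells undifferentiated, had another pattern. Its levels were 10.7, 10.9 and 9.45 FPKM in WT untreated libraries and 167, 173 and 134 FPKM in WT H2O2 libraries. In Atg7KO cells they were 16.3, 18.6 and 19.5 FPKM untreated and 48.0, 45.5 and 46.7 FPKM after H2O2. Untreated Atg7KO libraries lay above untreated WT libraries, but after H2O2 every Atg7KO library lay below every WT library. LIF rose by 3.93 on the log2 scale in WT cells (SE 0.13, adjusted p = 2.55e-06) and by 1.36 in Atg7KO cells (SE 0.10, adjusted p = 0.000106), or 1.28 without the library that stood apart. The untreated difference of 0.81 (SE 0.12, adjusted p = 0.00407) was less secure, since it missed the threshold in 6 of 15 alternative analyses (adjusted p up to 0.0301), and was 0.89 (adjusted p = 9.78e-33) without the library that stood apart.

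Beside LIF, the antisense gene AC004264.1, which overlaps it on the opposite strand, averaged 12.7 reads in WT untreated, 79.0 in WT H2O2, 25.3 in Atg7KO untreated and 57.7 in Atg7KO H2O2 libraries. The sources used here do not give a strand setting for the counting, so reads of the antisense gene and of LIF cannot be told apart where they overlap. LIF itself had at least 666 reads in every library. The antisense gene AC073072.1, which overlaps IL6, had 3 to 26 reads, against at least 63 for IL6.

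The receptor chains moved less than the ligands, and differently from each other. IL1R1 (ENSG00000115594, chr2:102064544-102179874, plus strand) was at 1.73, 1.37 and 1.56 FPKM in WT untreated libraries and 1.64, 1.69 and 1.85 FPKM in WT H2O2 libraries, which overlapped. It was at 2.48, 3.02 and 3.59 FPKM in Atg7KO untreated libraries and 4.16, 3.87 and 4.24 FPKM in Atg7KO H2O2 libraries, all above the WT libraries. The untreated difference was 0.97 on the log2 scale (SE 0.17, adjusted p = 0.00856), but the call was lost in 9 of 15 alternatives (adjusted p up to 0.0522). It was 1.10 (adjusted p = 1.05e-19) without the library that stood apart, here the lowest of its group. The H2O2 responses of IL1R1 did not pass the test in WT cells (0.15, SE 0.12, adjusted p = 0.255) or in Atg7KO cells (0.42, SE 0.15, adjusted p = 0.0565), although the latter did without that library (0.29, adjusted p = 0.00119).

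IL1RAP (ENSG00000196083, chr3:190514051-190659750, plus strand) was at 3.54, 3.21 and 3.36 FPKM in WT untreated libraries and 5.83, 5.98 and 6.35 FPKM in WT H2O2 libraries. In Atg7KO cells it was at 3.18, 3.62 and 3.91 FPKM untreated and 8.64, 8.88 and 8.29 FPKM after H2O2. The untreated lines overlapped (0.08, SE 0.11, adjusted p = 0.628), and both rose after H2O2. The response was 0.84 in WT cells (SE 0.06, adjusted p = 6.22e-17) and 1.26 in Atg7KO cells (SE 0.11, adjusted p = 0.000185). Without the library that stood apart, the Atg7KO response was 1.18 and the untreated difference 0.17 (adjusted p = 0.0425). With all libraries, the accessory chain was called in the H2O2 responses and IL1R1 in the comparison of untreated lines, a call that was often lost. The chains were not tested against each other.

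MYD88 (ENSG00000172936, chr3:38138478-38143022, plus strand), the adaptor shared with Toll-like receptors, was at 5.27, 5.77 and 5.55 FPKM in WT untreated libraries, 6.001, 5.992 and 6.631 in WT H2O2, 6.43, 7.47 and 8.06 in Atg7KO untreated and 8.68, 9.95 and 8.64 in Atg7KO H2O2. It did not pass the test in the WT response (0.16, SE 0.08, adjusted p = 0.0815), the Atg7KO response (0.31, SE 0.12, adjusted p = 0.0818) or between untreated lines (0.40, SE 0.12, adjusted p = 0.057). Without the library that stood apart, the Atg7KO response (0.21, adjusted p = 0.00908) and the untreated difference (0.50, adjusted p = 1.26e-07) passed.

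IRAK1 (ENSG00000184216, chrX:154010500-154019980, minus strand), the receptor-associated kinase, was the only member with a negative fitted difference between untreated lines. It was at 75.1, 74.5 and 78.4 FPKM in WT untreated libraries and 87.3, 91.8 and 81.8 FPKM in WT H2O2 libraries, against 46.3, 56.8 and 54.2 FPKM in Atg7KO untreated and 52.3, 56.4 and 56.4 FPKM in Atg7KO H2O2 libraries. Each Atg7KO library lay below each WT library. The untreated difference of -0.54 (SE 0.11) gave an adjusted p of 0.0164, which missed the threshold of 0.01, and passed it without the library that stood apart (-0.45, adjusted p = 8.34e-19). IRAK1 rose slightly in WT cells (0.19, SE 0.04, adjusted p = 0.000181), a call that was lost when all 12 libraries shared 1 fit (adjusted p = 0.0777), and its Atg7KO response was 0.06 (SE 0.11, adjusted p = 0.664).

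**Figure D2:**
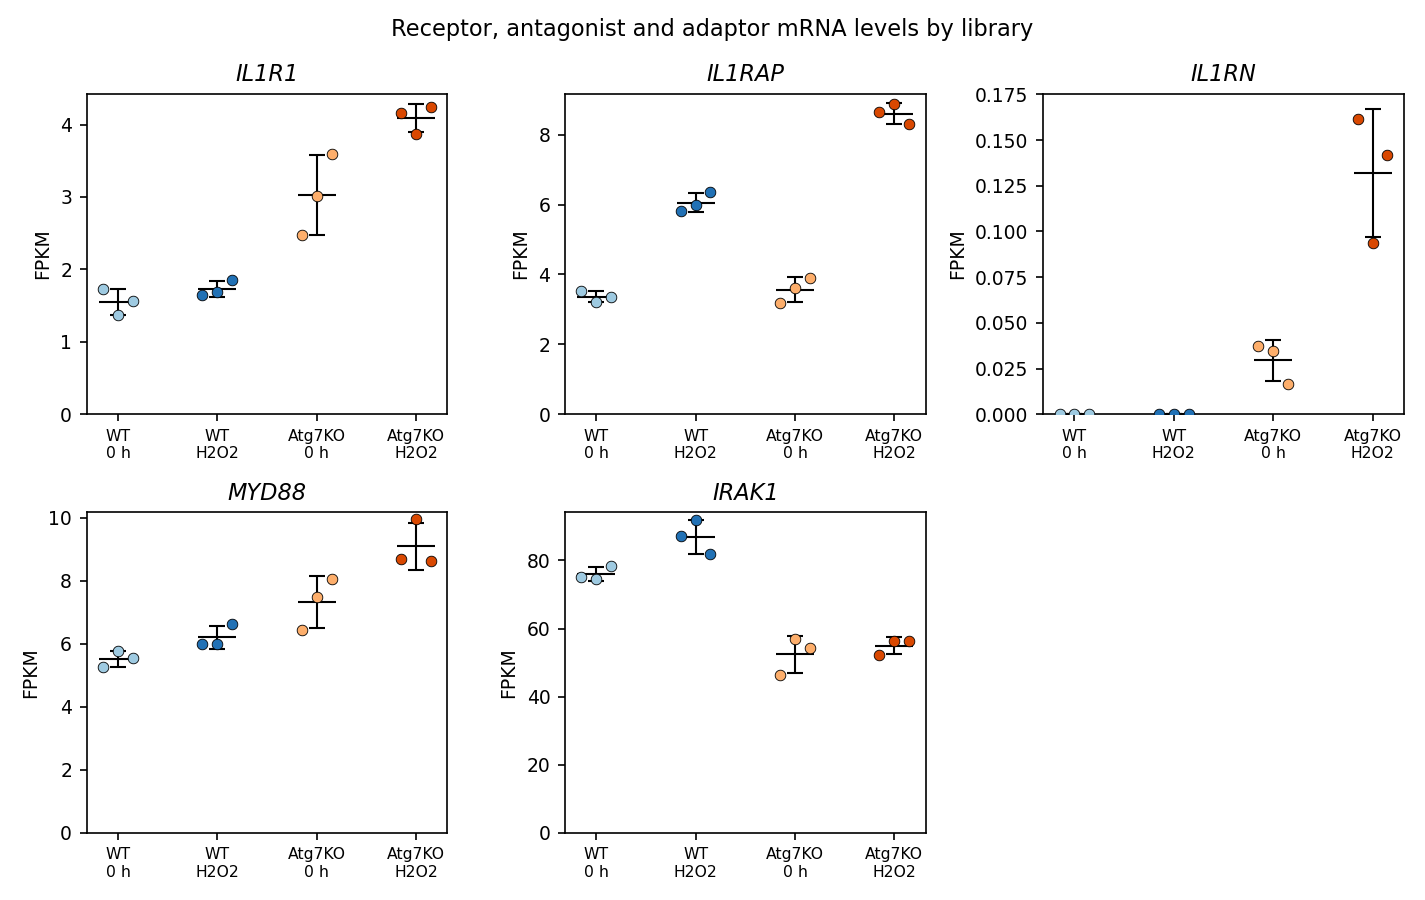
Levels of IL1R1, IL1RAP, IL1RN, MYD88 and IRAK1 in FPKM on linear axes that start at 0, for 3 libraries in each of 4 groups (points), with the group mean and SD (bars). IL1R1, MYD88 and IL1RN averaged higher and IRAK1 lower in Atg7KO cells than in WT cells of the same treatment, and IL1RAP was higher after H2O2 in both lines.

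Of the 8 members tested, 6 rose in the H2O2 response of WT cells, beside 30.9% of 15913 genes called higher, and 0 fell, beside 30.1% called lower (edgeR quasi-likelihood test, adjusted p under 0.01; IL1R1 and MYD88 were not called). In Atg7KO cells 5 of 8 rose, beside 13.6% of 15475 genes, and 0 fell, beside 12.4%. Between untreated lines 5 of 8 were higher in Atg7KO cells, beside 4.42% of 15357 genes, and 0 were lower, beside 3.28%. The median log2 fold change of the 8 tested members was 2.31 in WT cells, 1.31 in Atg7KO cells and 0.89 between untreated lines, while the medians over all genes tested were -0.01, -0.03 and 0.01. The comparison of untreated lines shares a group with each response, so the counts are not independent. Each response contains a treated group, and the treated difference was known for IL1B, IL1R1 and IL6 when the members were chosen. The counts therefore describe chosen genes. In the responses no member had an unadjusted p under 0.05 for a decrease, and DESeq2 called none lower, whereas between untreated lines 1 member, IRAK1, was lower at an unadjusted p under 0.05 and was called lower by DESeq2. DESeq2 called 6, 5 and 5 members higher in the 3 comparisons.

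**Figure D3:**
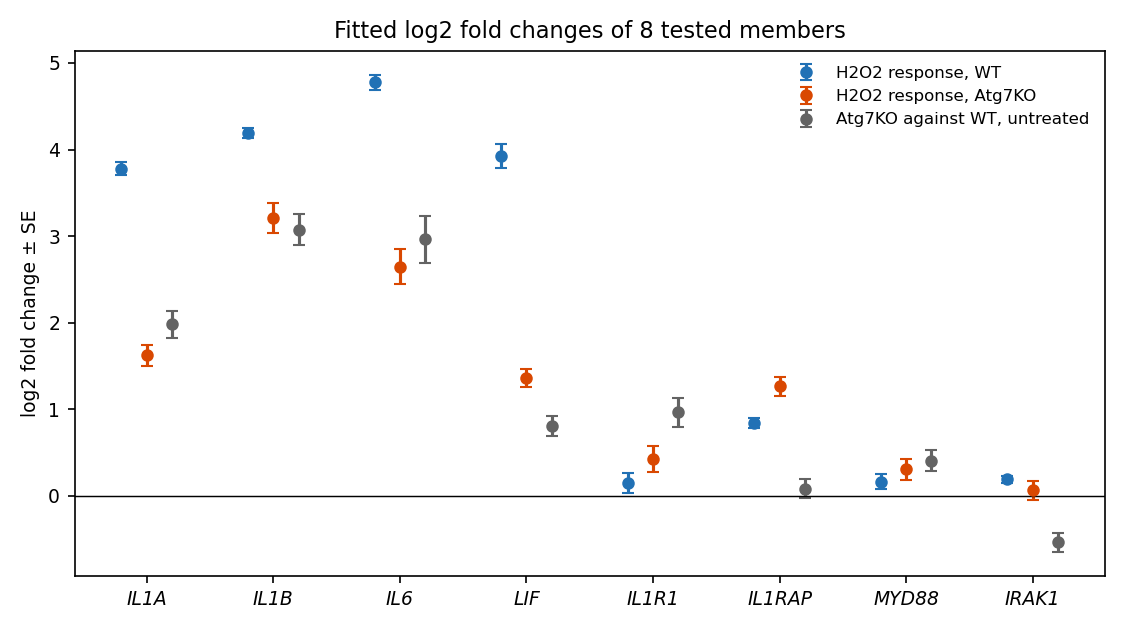
Fitted log2 fold changes with their SE for the 8 members that passed the filter on low counts, in the H2O2 responses of WT and Atg7KO cells and between the untreated lines. For IL1A, IL1B, IL6 and LIF the WT response was the larger fold change, and for IL1RAP the fitted Atg7KO response was 1.26 against 0.84 in WT cells.

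The H2O2 responses of the lines were then compared directly, as the log2 response of Atg7KO cells minus that of WT cells over all 12 libraries. This difference contains the treated lines, whose difference was known for IL1B, IL1R1 and IL6. Of the 8 members, 4 responded by a smaller fold in Atg7KO cells, beside 7.01% of 16856 genes called in that direction, and 0 by a larger fold, beside 7.02% (1 at an unadjusted p under 0.05 and 1 by DESeq2, IL1RAP). LIF differed most (-2.57, SE 0.15, adjusted p = 2.05e-06), followed by IL1A (-2.16, SE 0.16, adjusted p = 1.04e-05), IL6 (-2.13, SE 0.27, adjusted p = 0.000217) and IL1B (-0.98, SE 0.18, adjusted p = 0.00224). All 4 kept the call without the library that stood apart, at -2.63, -2.04, -1.85 and -0.78, respectively.

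IL1RAP had a difference of 0.42 in the other direction (SE 0.12, adjusted p = 0.0191), which passed without that library (0.35, adjusted p = 0.000343) and was 0.04 (adjusted p = 0.825) once a trend with gene length was removed. IRAK1 (-0.13, SE 0.12, adjusted p = 0.445) passed without that library (-0.20, adjusted p = 0.00352). The differences of IL1R1 (0.28, SE 0.19, adjusted p = 0.282) and MYD88 (0.14, SE 0.14, adjusted p = 0.464) did not pass the test.

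Untreated Atg7KO cells started from higher levels of IL1A, IL1B, IL6 and LIF. The fold and the gain in level ordered the lines differently for IL1B and IL6, but not for IL1A and LIF. The mean gain in IL1B after H2O2 was 104.7 FPKM in WT cells (SE 2.54) and 421 FPKM in Atg7KO cells (SE 14.2), although the fold was smaller in Atg7KO cells. For IL6 the gain was 61.8 FPKM (SE 1.99) in WT cells and 96.4 FPKM (SE 4.11) in Atg7KO cells. For IL1A it was 82.6 FPKM (SE 3.13) against 53.4 FPKM (SE 2.53), and for LIF 147.8 FPKM (SE 12.0) against 28.6 FPKM (SE 1.19), so for these genes WT cells had both the larger fold and the larger gain. The gains in FPKM were not tested between the lines.

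**Figure D4:**
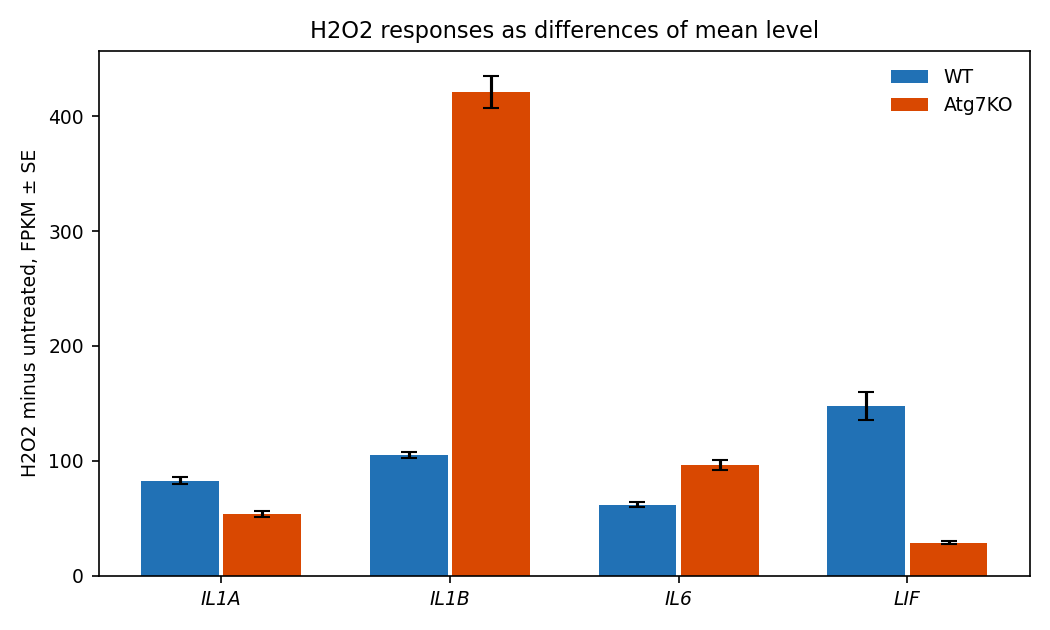
Mean FPKM after H2O2 minus mean FPKM untreated for IL1A, IL1B, IL6 and LIF in WT and Atg7KO cells, with the SE from 3 libraries per group. The gain was larger in Atg7KO cells for IL1B (421 against 104.7 FPKM) and IL6 (96.4 against 61.8 FPKM) and larger in WT cells for IL1A and LIF.

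After H2O2 the members differed between the lines in opposite directions, given here as a description. IL1B was higher in Atg7KO H2O2 than in WT H2O2 by 2.08 on the log2 scale (SE 0.04), 4.24-fold, and IL1R1 by 1.24 (SE 0.09), 2.36-fold. LIF was lower in Atg7KO H2O2, at -1.77 (SE 0.11), a 3.40-fold difference. A log2 fold change of 1 was thus passed upwards by 2 of 8 members, beside 5.05% of 15909 genes, and downwards by 1, beside 9.43%. The others were smaller: IL6 at 0.83 (SE 0.04), MYD88 at 0.54 (SE 0.07), IL1RAP at 0.50 (SE 0.05), IRAK1 at -0.67 (SE 0.04) and IL1A at -0.18 (SE 0.04). The value of IL1A was -0.01 once a trend with gene length was removed.

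Profiles over the 12 libraries were compared as the root mean square difference of centred log2(CPM + 0.5) values, among 12557 genes with a mean above 1 FPKM. The libraries share groups, so the values describe likeness and carry no test. Among the members, IL1B and IL6 were the most alike (0.463), followed by IL1A and IL6 (0.695) and IL1A and LIF (0.706), while IL1B and LIF were least alike (1.67). The gene nearest to IL1B was SH2D2A, an adaptor of T cell signalling (0.252), followed by INHBA, the activin A subunit (0.364), CSF2, the cytokine GM-CSF (0.413), IL6 and DUSP4, a MAP kinase phosphatase (0.698). CSF2 was also the nearest gene to IL6 (0.376), then INHBA, IL1B, SH2D2A and CXCL8. SH2D2A averaged 0.0898 FPKM in WT untreated and 6.18 FPKM in WT H2O2. At so low a level the added 0.5 can shape its likeness, so its rank is uncertain.

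IL1A was most like the chemokine CXCL3 (0.255), followed by BCL2A1, PHLDA1, PGF and DUSP6 (0.356 for the last). LIF was most like PMAIP1, which encodes the pro-apoptotic protein NOXA (0.351), followed by ZFP36L2, HBEGF, AC144831.1 and PTAFR (0.418 for the last). PMAIP1 averaged 30.2 FPKM in WT untreated, 400.3 in WT H2O2, 51.4 in Atg7KO untreated and 206.6 in Atg7KO H2O2. CSF2 averaged 3.98, 64.9, 27.0 and 165.5 FPKM in the same order. In WT untreated, AC144831.1 averaged 0.121 FPKM and PTAFR 0.183 FPKM, so their ranks share the limit given for SH2D2A. The nearest genes of LIF were highest in WT H2O2 and those of IL1B and IL6 in Atg7KO H2O2, as their members were. They were picked for likeness over the same libraries, which favours a shared order of groups. IL1A was highest in WT H2O2, as was BCL2A1 (8.06 FPKM against 7.86 in Atg7KO H2O2). CXCL3, the gene nearest to IL1A, averaged 24.99 FPKM in Atg7KO H2O2 against 22.5 in WT H2O2, and PHLDA1, PGF and DUSP6 were also highest in Atg7KO H2O2.

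The relatives of the members in the 2 gene clusters on chromosome 2 were mostly silent. In the ligand cluster, IL36A, IL36B, IL36RN and IL1F10 had at most 5 reads in any library and IL37 at most 10, while IL36G, an epithelial agonist, reached 37. Of 8 listed IL-1 family ligands, 1 of 3 tested rose in WT cells, 2 of 3 rose and 1 fell in Atg7KO cells, and 1 of 2 was higher and 1 lower in untreated Atg7KO cells. Over all genes 30.9% rose and 30.1% fell in WT cells, and 13.6% rose and 12.4% fell in Atg7KO cells. Between untreated lines 4.42% of all genes were higher and 3.28% lower in Atg7KO cells. Without any of Atg7KO H2O2 replicates 1, 2 and 3 the Atg7KO calls of this list fell from 3 to 1, and the untreated calls fell from 2 to 0 without any WT untreated replicate or Atg7KO untreated replicate 3, and to 1 without Atg7KO untreated replicate 2. IL36G was at 0.208 ± 0.116 FPKM in Atg7KO untreated and 1.26 ± 0.328 FPKM in Atg7KO H2O2, a log2 fold change of 2.57 (SE 0.44, adjusted p = 0.00354), which missed the threshold in 5 of 14 alternatives. Its WT response was 3.41 (SE 0.63, adjusted p = 6.53e-06). In the receptor cluster, the decoy receptor IL1R2 had at most 7 reads and IL1RL1, the IL-33 receptor, at most 16. Of 8 listed receptors of the family, 1 of 1 tested rose in WT cells, 1 of 2 fell in Atg7KO cells and 1 of 2 was higher in untreated Atg7KO cells. These few calls stand beside the same shares of all genes as those of the ligands.

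IL18R1, the neighbouring receptor for IL-18, was at 0.0172 ± 0.00753 FPKM in WT untreated cells and 0.996 ± 0.180 FPKM in Atg7KO untreated cells (log2 fold change 5.73, SE 0.36, adjusted p = 0.000189), and fell in Atg7KO cells after H2O2 (-1.83, SE 0.22, adjusted p = 0.000777). Its reads ranged from 1 to 85 per library, so the size of the difference between untreated lines is uncertain. The call between untreated lines was kept in all 14 alternatives. IL18R1 and IL1RL1 overlap on the same strand, and IL18RAP, the other chain, had at most 1 read. IL18 was higher in untreated Atg7KO cells (1.63 ± 0.499 against 0.285 ± 0.0908 FPKM, log2 fold change 2.50, SE 0.33, adjusted p = 0.00321), a call that was lost in 4 of 14 alternatives. IL33, the nuclear alarmin, rose after H2O2 in Atg7KO cells from 1.497 ± 0.0468 to 9.08 ± 1.004 FPKM (2.60, SE 0.13, adjusted p = 2.55e-05), and was lower in untreated Atg7KO cells than in untreated WT cells (-0.97, SE 0.16, adjusted p = 0.00721, lost in 6 of 15 alternatives). SIGIRR, a regulatory receptor of the family, rose in WT cells from 1.39 ± 0.155 to 1.93 ± 0.182 FPKM (0.47, SE 0.16, adjusted p = 0.00858), a call that was lost in 10 of 15 alternatives.

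In the list of 14 genes for IL-1 processing and the inflammasome, the complex that activates caspase-1, 5 of 10 tested genes rose and 1 fell in WT cells after H2O2. Over all genes 30.9% rose and 30.1% fell. In Atg7KO cells 2 of 11 rose and 1 fell, near the 13.6% and 12.4% of all genes. Between untreated lines 2 of 10 were higher and 0 lower (0 also at an unadjusted p under 0.05 and by DESeq2). The shares of all genes there were 4.42% and 3.28%. Leaving out single libraries moved the counts of this list in both directions. Without the library that stood apart, the Atg7KO response had 4 higher and 5 lower, beside 29.8% and 28.6% of all genes. The untreated comparison then had 5 higher, beside 18.2%. The 3 calls of the Atg7KO response fell to 1 without any of Atg7KO H2O2 replicates 1, 2 and 3, and the 2 untreated calls fell to 0 without any of the other 5 untreated libraries. NLRP3, an inflammasome sensor, rose in WT cells from 0.825 ± 0.1001 to 6.42 ± 0.311 FPKM (2.95, SE 0.11, adjusted p = 4.41e-27) and in Atg7KO cells from 1.03 ± 0.190 to 5.55 ± 0.582 FPKM (2.41, SE 0.17, adjusted p = 7.95e-05). CASP1, the protease that matures IL-1β, rose in both lines, in WT cells by 1.32 (SE 0.13, adjusted p = 7.61e-13) and in Atg7KO cells by 1.01 (SE 0.19, adjusted p = 0.00523). The Atg7KO call of CASP1 was lost in 4 of 15 alternatives (adjusted p up to 0.0266), namely without Atg7KO untreated replicate 2 and without each Atg7KO H2O2 replicate. PYCARD, the adaptor that links the sensor to caspase-1, was near 0, at a group mean of 0 to 0.0452 FPKM. PYCARD and the Atg7KO response of CASP1 were singled out after their values were seen.

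P2RX7, the ATP-gated channel known to trigger the inflammasome, fell in Atg7KO cells from 1.01 ± 0.224 to 0.347 ± 0.0348 FPKM (-1.54, SE 0.23, adjusted p = 0.00189, lost in 3 of 15 alternatives). Between untreated lines the called genes were CAPN2, a calpain subunit (0.53, SE 0.09, adjusted p = 0.00629), and the sensor NLRP1 (0.62, SE 0.11, adjusted p = 0.0099). These calls were lost in 7 and 10 of 15 alternatives.

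Of 16 genes for signalling below the IL-1 receptor, all tested, 6 rose and 4 fell in WT cells after H2O2, 5 rose and 2 fell in Atg7KO cells, and 1 was higher in untreated Atg7KO cells. Beside the shares over all genes (30.9% higher and 30.1% lower in WT cells, 13.6% and 12.4% in Atg7KO cells, 4.42% higher between untreated lines), the WT and untreated counts of this list are near the background. Without the library that stood apart, 8 rose and 4 fell in Atg7KO cells, beside 29.8% and 28.6% of all genes, and 4 were higher and 2 lower in untreated Atg7KO cells, beside 18.2% and 17.9%. The 7 calls of the Atg7KO response fell to 3, 3 and 4 without Atg7KO H2O2 replicates 1, 2 and 3, and to 4 without Atg7KO untreated replicate 2 or 3. The gene called in all untreated libraries together was IRAK2, a kinase of the same family as IRAK1, at 7.05 ± 0.642 FPKM in WT untreated and 15.4 ± 0.560 FPKM in Atg7KO untreated cells (1.13, SE 0.10, adjusted p = 0.000668). IRAK2 also rose after H2O2, in WT cells to 23.1 ± 0.802 FPKM (1.70, SE 0.07, adjusted p = 3.57e-27) and in Atg7KO cells by 0.83 (SE 0.08, adjusted p = 0.000354), whereas IRAK1 was lower in Atg7KO libraries. PELI1, a ubiquitin ligase that acts on IRAKs, rose in WT cells (1.07, SE 0.13, adjusted p = 5.35e-10) and in Atg7KO cells (0.82, SE 0.16, adjusted p = 0.00525). In Atg7KO cells TAB3, a partner of the kinase TAK1, rose from 6.49 ± 0.908 to 21.9 ± 0.578 FPKM (1.75, SE 0.13, adjusted p = 9.78e-05). TAB3 also rose in WT cells (0.91, SE 0.05, adjusted p = 8.45e-21). The kinase gene MAP3K8 fell in Atg7KO cells (-1.55, SE 0.20, adjusted p = 0.00105) and was not called in WT cells (-0.15, SE 0.13, adjusted p = 0.313).

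The list of 16 IL-1 induced genes, mostly chemokines, colony-stimulating factors and NF-κB feedback genes, was called in the direction of IL1A and IL1B in the untreated comparison, where 11 of 13 tested were higher in Atg7KO cells and 0 lower (0 also at an unadjusted p under 0.05 and by DESeq2). Over all genes 4.42% were higher and 3.28% lower. The list was chosen with earlier results of these data known, so its counts describe chosen genes. Whether IL-1 acted on these genes was not tested. The count of this list fell from 11 to 5 when any of WT untreated replicates 1, 2 and 3 was left out. The count was 12 without the library that stood apart, where 18.2% of all genes were higher. After H2O2, 12 of 13 rose and 1 fell in WT cells, beside 30.9% and 30.1% of all genes. In Atg7KO cells 8 of 15 rose and 2 fell, beside 13.6% and 12.4%. The median log2 fold change of the list was 3.22, 1.04 and 1.37 in the WT response, the Atg7KO response and the untreated comparison. The difference of the responses was called lower for 11 of 15, beside 7.01% of all genes. It was called higher for 0, beside 7.02% (0 also at an unadjusted p under 0.05 and by DESeq2). CXCL8, the neutrophil chemokine IL-8, was at 52.7 ± 4.73 FPKM in WT untreated and 524 ± 195 FPKM in Atg7KO untreated cells (3.31, SE 0.26, adjusted p = 0.000418). CSF3, which encodes G-CSF, rose from 0.0677 ± 0.0309 to 16.3 ± 1.78 FPKM in WT cells (7.85, SE 0.20, adjusted p = 4.33e-34). It had as few as 2 reads in an untreated library, and over 14 alternatives the WT value ranged from 4.01 to 8.24. The size of this WT change is therefore uncertain. In Atg7KO cells CSF3 rose from 5.40 ± 2.36 to 81.2 ± 3.99 FPKM (3.91, SE 0.29, adjusted p = 9.99e-05).

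CCL2, a monocyte chemokine, was the gene of this list that fell after H2O2 in both lines, in WT cells by 1.05 on the log2 scale (SE 0.09, adjusted p = 7.57e-09) and in Atg7KO cells from 66.2 ± 23.0 to 9.94 ± 1.66 FPKM (-2.74, SE 0.26, adjusted p = 0.000289). NFKBIA, which encodes the NF-κB inhibitor IκBα, was called higher in the WT response (1.56, SE 0.05, adjusted p = 1.98e-31), while its Atg7KO response was -0.44 (SE 0.16, adjusted p = 0.056). Its level was 52.2 ± 2.83 FPKM in WT untreated, 155 ± 6.31 in WT H2O2, 132.6 ± 29.4 in Atg7KO untreated and 97.8 ± 4.24 in Atg7KO H2O2 cells. CCL2 and NFKBIA were singled out after their values were seen.

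Around IL6 and LIF, the relatives IL11 and CLCF1 were the 2 of 4 tested gp130 cytokines that rose in WT cells, by 1.48 (SE 0.07, adjusted p = 1.17e-22) and 1.02 (SE 0.09, adjusted p = 1.7e-13). In the Atg7KO response 0 of 4 passed by edgeR, with 2 higher and 1 lower at an unadjusted p under 0.05 and 1 called higher by DESeq2. Without the library that stood apart 3 passed, where 29.8% of all genes rose and 28.6% fell. IL11 was at 6.97 ± 0.160 FPKM in WT untreated and 26.04 ± 3.23 FPKM in Atg7KO untreated cells (1.90, SE 0.12, adjusted p = 0.000171). Of the 15 receptor and signalling genes of this family, 7 of 15 tested rose and 6 fell in WT cells, and 7 of 14 rose and 2 fell in Atg7KO cells, beside 30.9% and 30.1% of all genes in WT cells and 13.6% and 12.4% in Atg7KO cells. The 9 calls of the Atg7KO response fell to 3, 4 and 2 without Atg7KO H2O2 replicates 1, 2 and 3, and the WT count fell from 13 to 8 when all 12 libraries shared 1 fit. Between untreated lines 1 of 14 was called, the kinase gene TYK2 (-0.75, SE 0.13, adjusted p = 0.00762, lost in 6 of 15 alternatives), 0 were called without any of the other 5 untreated libraries, and 5 were called higher and 2 lower without the library that stood apart. Over all genes 4.42% were higher and 3.28% lower, and 18.2% and 17.9% without the library that stood apart. The feedback inhibitors rose in both lines, SOCS1 by 3.76 (SE 0.19, adjusted p = 1.33e-22) and 1.49 (SE 0.21, adjusted p = 0.00161) and SOCS3 by 1.58 (SE 0.06, adjusted p = 1.32e-27) and 1.25 (SE 0.11, adjusted p = 0.000221) in WT and Atg7KO cells, respectively.

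Of 9 genes for decay and stability of cytokine mRNA, 7 rose in WT cells, 2 rose in Atg7KO cells and 1 was higher in untreated Atg7KO cells. The shares of all genes called higher were 30.9%, 13.6% and 4.42%. In the lower direction edgeR and DESeq2 called 0 in each of these comparisons, with 1, 1 and 3 at an unadjusted p under 0.05. The shares of all genes called lower by edgeR were 30.1%, 12.4% and 3.28%. Without the library that stood apart, 6 rose and 1 fell in the Atg7KO response, beside 29.8% and 28.6% of all genes, and 3 were higher and 4 lower between untreated lines, beside 18.2% and 17.9%. With all 12 libraries in 1 fit, 4 genes of this list were called in WT cells, 4 in Atg7KO cells and 5 between untreated lines, and for the signalling list the Atg7KO calls rose from 7 to 12. ZFP36L2, whose family binds AU-rich elements, rose in WT cells from 4.39 ± 0.462 to 50.8 ± 5.08 FPKM (3.53, SE 0.08, adjusted p = 3.1e-25) and in Atg7KO cells from 6.46 ± 0.667 to 28.0 ± 0.728 FPKM (2.11, SE 0.10, adjusted p = 2.58e-05). ZFP36L1 rose in both lines, by 1.22 in WT cells (SE 0.04, adjusted p = 4.52e-29) and by 1.10 in Atg7KO cells (SE 0.11, adjusted p = 0.000372). ZC3H12A, the ribonuclease Regnase-1 that cleaves IL6 mRNA, rose in WT cells (1.89, SE 0.06, adjusted p = 2.97e-31) and was at 33.4 ± 3.30 FPKM in Atg7KO untreated against 9.65 ± 0.225 FPKM in WT untreated cells (1.79, SE 0.11, adjusted p = 0.00018).

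**Figure D5:**
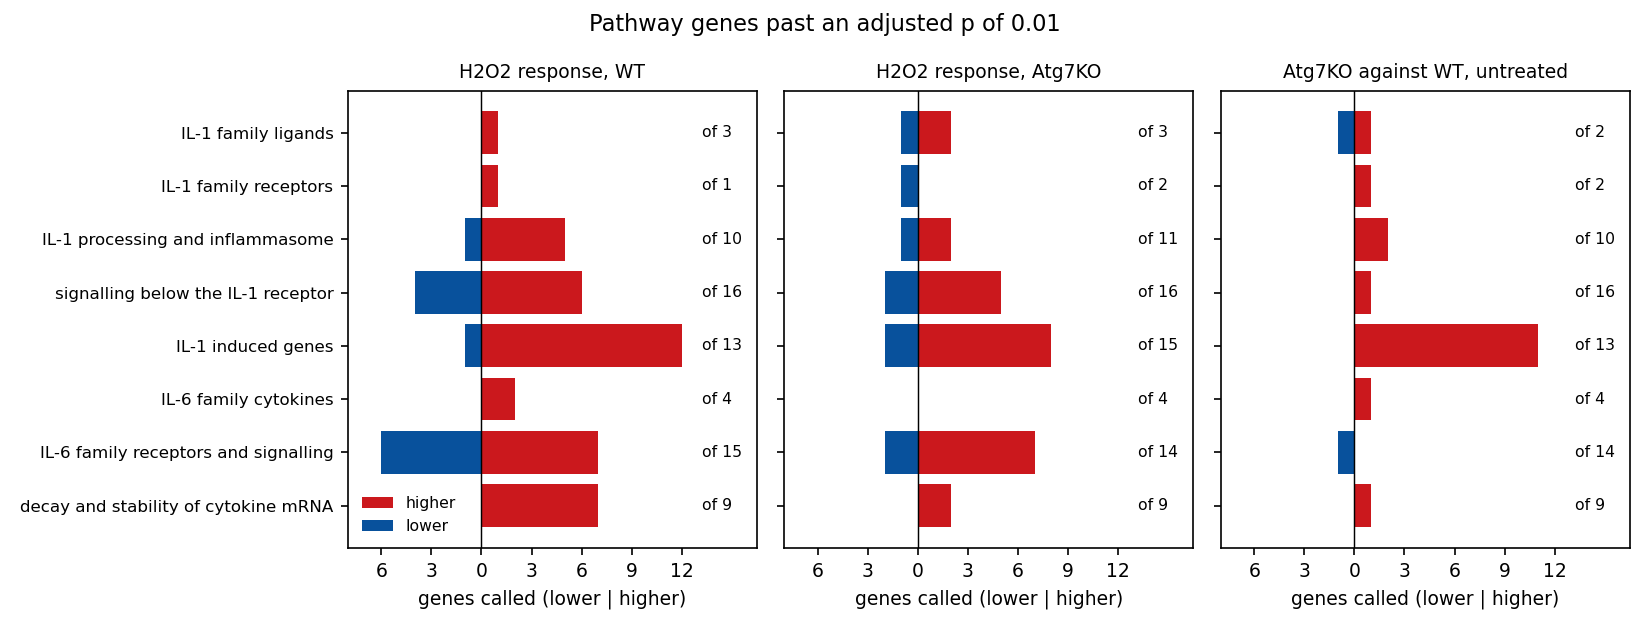
Numbers of genes called higher (right of 0) and lower (left of 0) at an adjusted p under 0.01 in 8 lists of pathway genes, for the H2O2 response of WT cells, that of Atg7KO cells and the untreated lines, with the number tested at the right of each row. The IL-1 induced genes had 12 of 13, 8 of 15 and 11 of 13 called higher, beside 30.9%, 13.6% and 4.42% of all genes. The lists were chosen with earlier results of these data known.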

How the data were processed

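Total RNA of 12 HLE-B3 cultures, described by the study as biological replicates, was sequenced after NEBNext Ultra library preparation. The deposited files hold raw read counts per gene and FPKM values, which the authors computed from reads aligned to GRCh38; the submitters' processing notes name HISAT2 2.0.5 and featureCounts 1.5.0-p3. Strand setting and treatment of multi-mapping reads are not given in the sources used here. FPKM values were used for levels, counts for tests.

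Counts were tested with edgeR 4.0.16 (R 4.3.3): filterByExpr with a minimum count of 10, TMM scaling, robust quasi-likelihood F-test, Benjamini-Hochberg adjustment over all genes tested, and a call at adjusted p under 0.01. Pairs of groups were fitted on their own 6 libraries and the difference of responses on all 12. The SE of a log2 fold change was back-calculated, as its absolute value divided by the square root of the F statistic. The script was tested on simulated counts. The members and gene lists were chosen with earlier results of these data known. Named pathway genes were, per list and comparison, the 2 with the largest called change and a group mean above 1 FPKM; genes overlapping members, the IL-1 gene clusters of chromosome 2 and the genes of most similar profile were also named, and others are marked where they appear. Alternatives used other scaling, filters and thresholds, DESeq2 1.42.0, limma 3.58.1 on log2(FPKM + 1) and log2(FPKM + 0.1), a replicate block, 1 fit of all libraries, leaving out each replicate and, added after seeing the data, an offset for a trend with gene length. Motifs were searched in RefSeq promoter windows (GRCh38.p14) and ATTTA in GENCODE v29 transcripts, whose coordinates matched those of the 9 members.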

Additional observations from a re-analysis of the deposited data

Results flagged for a closer look

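The H2O2 responses of 4 members differed between the lines by the test of the difference itself (edgeR, all 12 libraries, Atg7KO minus WT, log2 scale): IL1A by -2.16 (adjusted p = 1.04e-05), IL1B by -0.98 (adjusted p = 0.00224), IL6 by -2.13 (adjusted p = 0.000217) and LIF by -2.57 (adjusted p = 2.05e-06). Over 20 alternative analyses the differences ranged from -2.27 to -1.85 for IL1A, -1.09 to -0.78 for IL1B, -2.30 to -1.68 for IL6 and -2.67 to -2.48 for LIF, and the highest adjusted p was 0.00903, for IL1B. Each contains the difference between the treated lines, known for IL1B and IL6 when the members were chosen.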

How the results depend on the processing

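With replicates left out in turn, 6 members were called in the WT response in each run, 5 to 7 in the Atg7KO response, 3 to 7 between untreated lines and 4 to 6 for the difference of responses, and 3 passed a log2 fold change of 1 between treated lines. The upper counts of 7, 7 and 6 came without Atg7KO untreated replicate 1. In that run 29.8% of all genes were called higher and 28.6% lower in the Atg7KO response, against 13.6% and 12.4% with all libraries. Between untreated lines the shares were 18.2% and 17.9%, against 4.42% and 3.28%. For the difference of responses they were 17.8% and 16.3%, against 7.02% and 7.01%. The call count between untreated lines fell from 5 to 3 with a replicate block, without each WT untreated replicate and without Atg7KO untreated replicates 2 and 3, since IL1R1 and LIF were lost, and rose to 7 without Atg7KO untreated replicate 1. Equal replicate numbers did not mark paired samples (correlations of their deviations -0.069 to 0.098), and the replicate block changed no other member's call. At a log2 fold change beyond 0.5 between treated lines, 6 members passed instead of 3. The Atg7KO response of IRAK1, 0.06, was -0.0254 without Atg7KO untreated replicate 1 (adjusted p 0.56) and up to 0.12 in the other runs. Of 520 recomputed member values in the tested comparisons, 492 kept direction and side of the threshold, 16 lost and 11 gained a call, and 1 changed sign. The cause of these changes was not tested. Totals of 15602183 to 17659496 reads per library limit IL1RN, with 0 to 9 reads, which did not pass the filter on low counts.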
